A study of Mus musculus with 6 samples.

Results

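Hox genes were examined in ribosome-bound RNA from neonatal mouse kidney. All rows of the deposited count table named Hox, a cluster letter from a to d and a paralogue number were taken, which gave 39 of its 48587 gene rows. Anti-HA beads had pulled down ribosomes tagged through RiboTag, an allele that marks ribosomes in cells with Cre, and Cre was expressed from Cdh16, which encodes a cadherin of tubule epithelium in the kidney. The 3 control libraries came from Cdh16Cre;Foxp1fl/+;RiboTag littermates, which keep 1 unfloxed Foxp1 allele, and the 3 Foxp1-deficient libraries from Cdh16Cre;Foxp1fl/fl;RiboTag animals, so every animal carried the same Cre and the tag. The groups also differ in a treatment label, vehicle for controls and chronic acid load for Foxp1-deficient libraries, although the protocols describe no acid load, so genotype and treatment cannot be told apart. The labels number the libraries 1 to 3 within each genotype and do not say whether each came from its own animal. The p-values therefore reflect only how far these libraries spread, and that spread may be technical.

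Hox genes encode homeodomain transcription factors that give cells along the body axis their position. In mouse they lie in 4 clusters, and genes in the same relative place in different clusters form a paralogue group. Low numbers lie at the end of the cluster that is switched on early and in anterior regions, and high numbers at the end that is switched on late and in posterior regions. Developing kidney is known to use Hox10 and Hox11 genes, and Hoxa11, Hoxc11 and Hoxd11 together are needed for the kidney to form. Adult organs and their mesenchyme often keep the Hox pattern of the axial level at which they arose.

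The HoxA cluster held 11 members on chromosome 6, and HoxB held 10 on chromosome 11 (96194316 to 96368256, mm10). HoxC held 9 members on chromosome 15 (102921103 to 103036852), and HoxD held 9 on chromosome 2 (74668310 to 74765142). The counted exons of 16 members share bases with another gene row, and 23 members share none. Fragments were counted without regard to strand and were left out where they overlapped exons of more than 1 gene. The shared part reached 62.8% of the exon bases of Hoxd3, 52.9% of Hoxb3, 52.3% of Hoxd4 and 35.0% of Hoxa11, and fragments lying there went uncounted.

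Levels are given as CPM, the count of a gene divided by the total of its library and brought to a common scale, and as CPM per kb of counted exon where genes are compared with each other. Library totals ran from 9710048 to 18958196 counts, lowest in the libraries numbered 2, which also had 13885 and 14285 genes with a count against 18241 to 22190 in the other 4. A gene with no count could still have had up to 3 counts, which is 0.158 to 0.309 CPM depending on the library. The targeted gene, Foxp1, had 51.4, 26.0 and 40.5 CPM across controls 1 to 3 and 36.3, 9.17 and 33.7 CPM across Foxp1-deficient 1 to 3. The groups overlapped, and the log2 difference of -0.62 (SE 0.49, n = 3 each) had an adjusted p of 0.9998 (quasi-likelihood test of edgeR, Benjamini-Hochberg adjustment). Cdh16, a defining gene of the labelled tubule cells, stood at 0.350 and 0.297 CPM in control 1 and Foxp1-deficient 1, close to the level of 3 counts, and at 48.6 and 48.5 CPM in control 3 and Foxp1-deficient 3.

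Hox transcripts were scarce in all 6 libraries, and the members present depended on the replicate number. A Hox count was recorded for 31, 5 and 35 of the 39 members across controls 1 to 3, and for 27, 4 and 31 members across Foxp1-deficient 1 to 3. Summed over members, the level was 75.3, 8.97 and 51.4 CPM across controls 1 to 3 and 42.2, 11.9 and 56.7 CPM across Foxp1-deficient 1 to 3. The libraries numbered 2 were the lowest of both genotypes, in members counted and in summed level, and the genotypes overlapped. Only Hoxd8 and Hoxb2 reached 1 CPM in all 6 libraries. In the 4 libraries numbered 1 and 3 a further 6 members did so, among them Hoxa9, Hoxa10, Hoxb4, Hoxb9 and Hoxd10.

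The highest member by mean CPM per kb was Hoxd8, a mid-cluster gene of HoxD (chromosome 2, 74704615 to 74707933). It had 2.10, 1.95 and 16.7 CPM across controls 1 to 3 and 2.44, 7.52 and 18.4 CPM across Foxp1-deficient 1 to 3. Both libraries numbered 3 were the highest of their genotype, and the genotypes overlapped. Hoxa5 (chromosome 6, 52201754 to 52204587), which is known for its part in lung and airway mesenchyme, came next. It had 18.0, 0 and 0.989 CPM across controls 1 to 3 and 8.26, 0 and 0.580 CPM across Foxp1-deficient 1 to 3. Hoxa5 was thus highest in the libraries numbered 1, near 1 CPM or below in those numbered 3 and without counts in those numbered 2. Per kb of exon, control 1 had 9.59 CPM of Hoxa5 and 0.766 of Hoxd8, and control 3 had 0.527 of Hoxa5 and 6.08 of Hoxd8. The leading member therefore changed between numbers, with Hoxa5 making up 29.2% and 24.6% of the summed Hox level per kb in the libraries numbered 1 and Hoxd8 30.7% and 31.3% in those numbered 3.

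Promoter sequence is shown for these members because they moved in opposite directions between the libraries numbered 1 and 3. The 250 bases before each start are from RefSeq (GRCm38.p6), 5′ to 3′ on the gene's strand, with CG dinucleotides in capitals. The Hoxd8 stretch is chr2:74704365-74704614 on the plus strand, and the Hoxa5 stretch is chr6:52204588-52204837 on the minus strand.
Hoxd8: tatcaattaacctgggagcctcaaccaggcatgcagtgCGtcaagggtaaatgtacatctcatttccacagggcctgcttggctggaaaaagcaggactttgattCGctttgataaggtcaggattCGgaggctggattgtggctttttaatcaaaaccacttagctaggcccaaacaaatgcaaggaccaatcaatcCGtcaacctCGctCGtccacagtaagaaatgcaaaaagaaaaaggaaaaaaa
Hoxa5: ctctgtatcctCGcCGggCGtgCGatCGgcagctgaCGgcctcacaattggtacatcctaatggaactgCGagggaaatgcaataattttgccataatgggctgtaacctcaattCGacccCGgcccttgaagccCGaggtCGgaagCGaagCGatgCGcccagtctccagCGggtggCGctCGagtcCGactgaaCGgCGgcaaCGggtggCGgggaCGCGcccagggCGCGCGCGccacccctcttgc
The Hoxd8 stretch holds 6 CG dinucleotides and the Hoxa5 stretch 28. RefSeq windows of 300 bases, from 250 before to 50 after the start, matched 22 of the 39 members and had a median of 13.5 CG dinucleotides (range 4 to 45), against 7 in the windows of 27003 other genes. For a member the window nearest its counted start was used, and for any other gene the first listed. The starts of the Hoxc4 and Hoxd4 windows still lie 15461 and 10049 bases from the counted start, and those of Hoxa9 and Hoxa7 3719 and 3281. Both strands were searched for AGGTCA, the core hexamer of retinoid receptor sites, which 7 of the 22 Hox windows (31.8%) and 16.0% of the other windows held. The 7 were Hoxa5, Hoxb4, Hoxc4, Hoxd3, Hoxd4, Hoxd8 and Hoxd10, and the match in Hoxd8 begins 135 bases before the start. The match in Hoxa5 begins at base 42 counted from the start, outside the printed stretch. CCAAT, the letters of the CCAAT box, stood in 63.6% of Hox windows and 37.9% of others, and TATAAA, the TATA box, in 13.6% and 14.2%. TGATNNAT, the joint Pbx and Hox motif, stood in 13.6% of Hox windows and 9.04% of others, and TTTATGG, the motif of the caudal-type Cdx factors, in 4.55% and 2.76%. These are matches of letters and say nothing of binding.

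The members that followed were of lower level. Hoxb9 (chromosome 11, 96271457 to 96276595), a gene of thoracic skeletal patterning, had 12.5, 0 and 2.09 CPM across controls 1 to 3 and 4.58, 0 and 3.01 CPM across Foxp1-deficient 1 to 3. Hoxb9 followed Hoxa5 in being highest in the libraries numbered 1 and absent from the counts of those numbered 2. Hoxd10, a gene of lumbar motor neurons and hindlimb, had 2.52, 0 and 2.42 CPM across controls 1 to 3 and 1.49, 0 and 1.69 CPM across Foxp1-deficient 1 to 3. Hoxa10, which patterns the lumbar region and the uterus, had 3.36, 0 and 2.14 CPM across controls 1 to 3 and 2.97, 0 and 3.22 CPM across Foxp1-deficient 1 to 3. The exact 95% Poisson upper limits of its zero counts were 0.327 and 0.380 CPM, against a lower limit of 1.52 CPM in control 3. Such limits treat reads as independent molecules, which these reads are not. They therefore do not settle whether the zeros of Hoxa10 exceed counting error. For Hoxd10 and Hoxa10 the libraries numbered 1 and 3 overlapped, and only the libraries numbered 2 stood below.

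Hoxb2, a hindbrain gene, was counted in every library. It had 1.61, 3.28 and 2.91 CPM across controls 1 to 3 and 2.68, 2.16 and 3.96 CPM across Foxp1-deficient 1 to 3, or 2.60 ± 0.879 and 2.93 ± 0.924 CPM by genotype (SD, n = 3 each). Hoxb4, a gene of blood stem cells and the neck region, had 1.12, 0 and 2.97 CPM across controls 1 to 3 and 2.85, 1.65 and 3.69 CPM across Foxp1-deficient 1 to 3. Within each number the Foxp1-deficient library had more Hoxb4 than its control, while the genotypes as groups overlapped. Hoxd1, a gene of pain-sensing neurons, had 1.05, 1.07 and 2.20 CPM across controls 1 to 3 and 0.773, 0 and 1.85 CPM across Foxp1-deficient 1 to 3. At every number Hoxd1 was lower in the Foxp1-deficient library, while the genotypes as groups overlapped. Hoxb7, long used as a marker and driver gene of the ureteric bud and collecting duct, had 2.31, 0 and 1.59 CPM across controls 1 to 3 and 0.416, 0 and 1.42 CPM across Foxp1-deficient 1 to 3. Hoxb7 had no count in either library numbered 2, and its levels in the libraries numbered 1 and 3 overlapped.

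**Figure D1:**
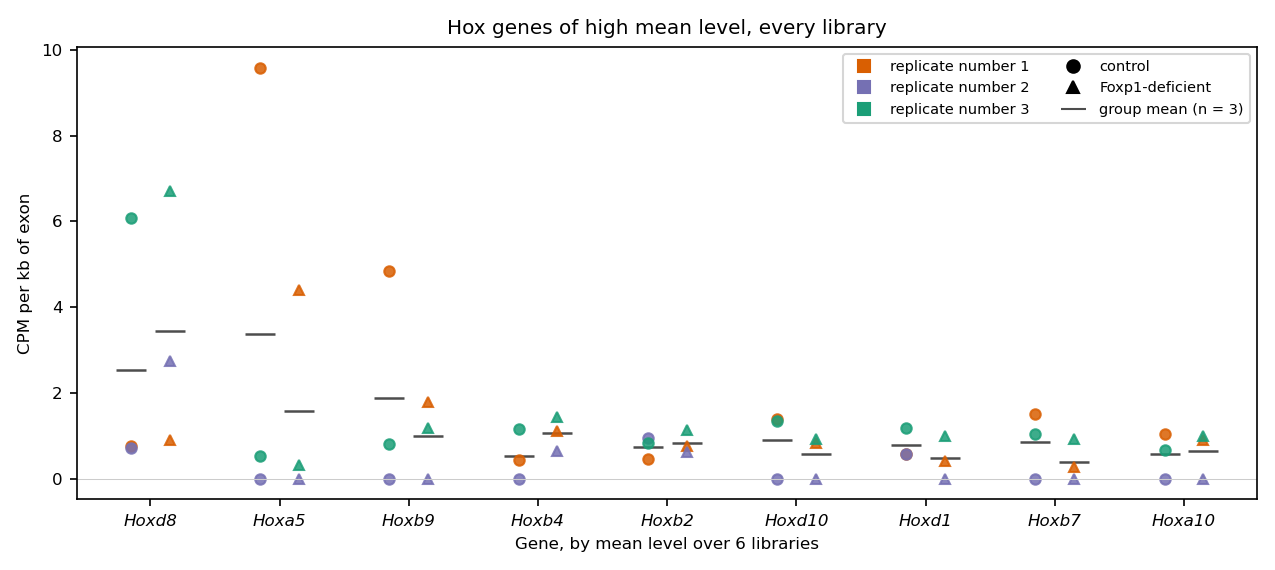
CPM per kb of exon of 9 of the 10 Hox genes of highest mean level, a point for each library, coloured by replicate number and shaped by genotype, with a bar at each genotype mean (n = 3). Hoxd8 was highest in the libraries numbered 3, at 6.08 and 6.71, and Hoxa5 in those numbered 1, at 9.59 and 4.40.

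Paralogue numbers 11 to 13 and number 3 had the lowest mean levels. The paralogue groups with the highest mean level, summed over their members, were number 8 with 3.53, number 5 with 2.55, number 9 with 2.43 and number 10 with 1.90 CPM per kb, whereas number 11 had 0.189, number 12 had 0, number 13 had 0.252 and number 3 had 0.262. Number 3 was not low in every library, at 0.521 and 0.799 CPM per kb in control 3 and Foxp1-deficient 3. Number 5 had 0.659 and 0.517 there. Exon length here includes the shared bases that went uncounted, 52.9% of Hoxb3 and 62.8% of Hoxd3. Hoxa11, 1 of the kidney genes numbered 11, had 5, 0 and 3 counts across controls 1 to 3. Across Foxp1-deficient 1 to 3 it had 10, 0 and 8 counts. Hoxc11 had 10 counts and Hoxd11 10 counts in all 6 libraries together. In bulk pulldowns, fewer cells of a type and less RNA per cell cannot be told apart, so these low levels apply to the captured RNA. Of the groups numbered 12 and 13, Hoxc12 and Hoxd12 had no count in any library. Hoxb13, a gene of the prostate and tail end, had a single count, in control 1, and Hoxd13, a digit and genital gene, had 2 counts in the same library. Hoxa13, a gene of limb ends and the urogenital outlet, had 14, 0 and 1 counts across controls 1 to 3 and 3, 0 and 0 counts across Foxp1-deficient 1 to 3. Hoxc13, known for hair and nail formation, had 3, 0 and 19 counts across controls 1 to 3 and 7, 0 and 12 counts across Foxp1-deficient 1 to 3, and was the only member of both groups that reached 1 CPM in any library (1.04 in control 3).

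By region, the middle of the clusters carried about the same share in most libraries. Paralogue numbers 4 to 8 made up 53.7%, 53.6% and 53.3% of the summed CPM per kb across controls 1 to 3 and 49.8%, 85.6% and 53.9% across Foxp1-deficient 1 to 3. Numbers 9 to 11 made up 36.0%, 0% and 22.9% across controls 1 to 3 and 31.3%, 0% and 24.2% across Foxp1-deficient 1 to 3, so that they were highest in the libraries numbered 1 and uncounted in those numbered 2. Numbers 1 to 3 made up 8.56%, 46.4% and 21.5% across controls 1 to 3 and 17.6%, 14.4% and 20.7% across Foxp1-deficient 1 to 3. Weighting each member's paralogue number by its CPM per kb gave a mean position of 6.68, 4.64 and 6.56 across controls 1 to 3 and of 6.13, 6.40 and 6.57 across Foxp1-deficient 1 to 3. The genotype means, 5.96 ± 1.15 and 6.36 ± 0.221 (SD, n = 3 each), differed by 0.406, less than the pooled SD of 0.825. Without control 2 that difference was -0.25, so its sign rests on that library. Control 2, the lowest, rested on 101 Hox counts in 5 members. Averaged by replicate number the position spanned 1.05, and without control 2 it spanned 0.165, so the span rests on that library.

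**Figure D2:**
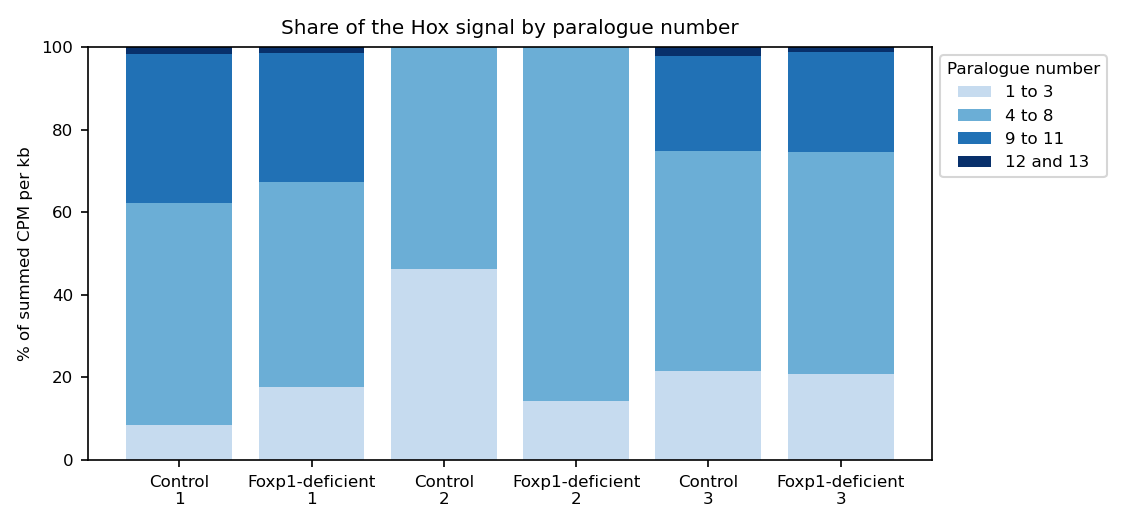
Share of paralogue numbers 1 to 3, 4 to 8, 9 to 11 and 12 to 13 in the summed CPM per kb of Hox genes, in percent, a stacked bar for each library. Numbers 9 to 11 took 22.9% to 36.0% in the libraries numbered 1 and 3 and 0% in both numbered 2.

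The clusters took different shares in the libraries of different numbers. HoxA held 40.9% and 45.5% of the summed CPM per kb in the libraries numbered 1, 20.9% and 17.6% in those numbered 3, and 0% in those numbered 2 (the control given before the Foxp1-deficient library in each case). HoxD held 8.81% and 12.2% in the libraries numbered 1, 47.7% and 44.2% in those numbered 3, and 39.3% and 63.5% in those numbered 2. HoxC held 22.6% and 14.97% in the libraries numbered 1 and 6.70% and 7.84% in those numbered 3, and its share in those numbered 2 was 31.8% in the control, from Hoxc6 and Hoxc8, and 0% in the Foxp1-deficient library. HoxB varied least, from 24.7% to 36.5%. The HoxA share did not overlap between any of the 3 numbers, and the HoxD share did not overlap between numbers 1 and 3. The HoxA contrast rests on Hoxa5, since without that gene, a choice made after seeing the data, HoxA held 16.6% and 27.7% of the remaining level in the libraries numbered 1 and 18.7% and 16.4% in those numbered 3, which overlap. Without Hoxd8, likewise, HoxD held 6.63% and 7.66% in the libraries numbered 1 and 24.6% and 18.8% in those numbered 3, and these did not overlap.

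**Figure D3:**
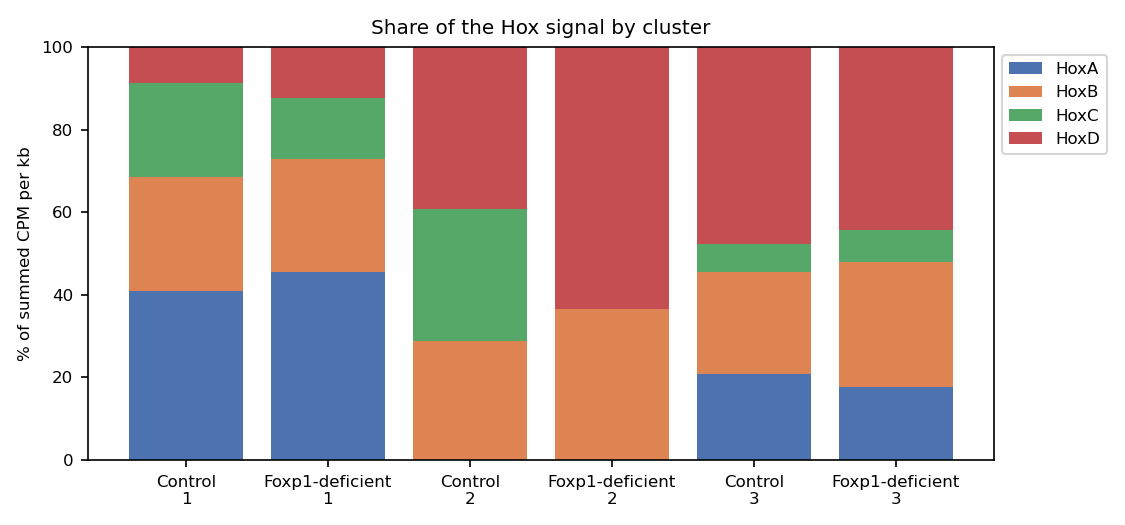
Share of each cluster in the summed CPM per kb of Hox genes, in percent, a stacked bar for each library. HoxA was the largest cluster in both libraries numbered 1, at 40.9% and 45.5%, and HoxD in both numbered 3, at 47.7% and 44.2%.

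The same contrast was read member by member in the 22 members with a mean of at least 0.5 CPM over the libraries numbered 1 and 3. Both libraries numbered 1 were above both numbered 3 for 7 members, where 21.9% of all 15244 such genes did this. Those 7 were Hoxa5, Hoxb8, Hoxb9, Hoxc4, Hoxc6, Hoxc9 and Hoxc10. Both libraries numbered 3 were above both numbered 1 for 9 members, where 39.1% of all such genes did this, and these were Hoxa3, Hoxa7, Hoxb2, Hoxb3, Hoxb4, Hoxc13, Hoxd1, Hoxd8 and Hoxd9. The share of members was 31.8% and 40.9% in turn, the latter near the background. By cluster, 4 of 5 HoxC members were higher in number 1 and 3 of 4 HoxD members were higher in number 3, while HoxA and HoxB members fell on both sides. The filter used the same libraries that were compared, for all genes alike. Hoxa3, Hoxa7, Hoxc13 and Hoxd9 passed it only through number 3, and Hoxc4 only through number 1. Their direction, also in the cluster counts, follows from that choice. The other 17 members averaged under 0.5 CPM in those libraries, and of them 2 had no count and 11 had 10 counts or fewer in all 6 libraries.

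Hoxa3 and 5 members outside those 22 had counts in both libraries numbered 3 and none in the other 4, where 5.42% of the 25525 genes with any count did so. The 6 were Hoxa3, Hoxa4, Hoxb1, Hoxb5, Hoxd3 and Hoxd4, all of paralogue numbers 1 to 5, and are named after their values were seen. Hoxa3, a gene of the throat region, had 23 and 16 counts, and the other 5 had between 2 and 14 counts in a library. Hoxa4, with 3 and 2 counts, and Hoxb1, with 2 and 3, lie within what a count of 0 allows. Hoxd3, with 4 and 3 counts, stood close to that limit, and Hoxb5 and Hoxd4 each had only 4 counts in control 3. Of the antisense genes, also named after their values were seen, Hoxb5os of HoxB had 37 and 28 counts in the libraries numbered 3 and none in the others, and Hoxd3os1 had 19 and 20 against at most 2. Hotairm1, a noncoding RNA of HoxA, went another way and had 57 and 110 counts in the libraries numbered 2, or 5.06 and 11.3 CPM, against 1.12 to 1.59 CPM in the other 4. No member had counts in both libraries numbered 1 alone, where 0.674% of genes did, or in both numbered 2 alone, where 0.094% did.

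Across replicate numbers, a joint edgeR quasi-likelihood F test with genotype in the model called 2 of the 16 members passing the low-count filter. Of all 14311 genes tested 30.7% were called, 14.5% with a positive and 16.2% with a negative difference of number 3 from number 1. At this level of the background the count is not a result about Hox genes as a group. The joint test also takes in the libraries numbered 2, in which Hoxa5 and Hoxb9 had no count. A called gene therefore need not differ between numbers 3 and 1. Hoxa5 was lower in number 3 than in number 1 by a log2 difference of -4.11 (SE 0.80, adjusted p = 0.0157, edgeR with Benjamini-Hochberg adjustment). For Hoxb9 the log2 difference was -1.71 (SE 0.98, adjusted p = 0.0400, edgeR with Benjamini-Hochberg adjustment). Hoxd8 was not called by the same edgeR test, with a log2 difference of 2.85 (SE 0.69, Benjamini-Hochberg adjusted p = 0.0586). Hoxa10 had an edgeR adjusted p of 0.0619, with a log2 difference between numbers 3 and 1 of -0.38. Call counts depended on single libraries, for members and over all genes alike. They fell when either library numbered 1 or 3 was left out and rose when either numbered 2 was. By edgeR the Hoxa5 log2 difference was -3.93 without control 1 and -4.30 without Foxp1-deficient 1. Its size thus held while number 1 was down to a single library. The Hoxb9 call was lost when control 1, control 3, Foxp1-deficient 1 or Foxp1-deficient 3 was left out, and Hoxd8 was called when either library numbered 2 was left out.

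With both libraries numbered 2 left out, a choice made after seeing the data, edgeR compared numbers 3 and 1 alone in 15303 genes, 22 of them Hox, and called 18.8% of genes (10.1% higher in number 3 and 8.65% higher in number 1) and 3 members. Hoxa5 had a log2 difference of -4.13 (SE 0.36, adjusted p = 0.00380, edgeR with Benjamini-Hochberg adjustment) and Hoxd8 of 2.83 (SE 0.28, adjusted p = 0.00455). Hoxc4, named after its values were seen and known for its part in antibody gene switching, had 96 and 23 counts in the libraries numbered 1 and 1 and 3 in those numbered 3. Its log2 difference was -4.91 (SE 1.04, edgeR adjusted p = 0.0290). Hoxb9 was no longer called, at an edgeR adjusted p of 0.0803. Hoxd9, with 27 and 22 counts in number 3 against 2 and 1 in number 1, was not called either, at a log2 difference of 3.57 (SE 1.07, edgeR adjusted p = 0.0679). Of the 22, 12 were higher in number 3 and 10 in number 1, and their median log2 difference of 0.25 stood beside 0.04 over all genes.

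Markers of kidney tubule and of several other cell types also differed between the libraries numbered 1 and 3. In every library the largest marker sums were those of mesothelium and kidney stroma. The 5 mesothelial markers summed to 1734 to 1961 CPM in controls and 2477 to 5008 CPM in Foxp1-deficient libraries. The 6 kidney stroma markers summed to 1875 to 10469 CPM, with Col1a1 alone at 1743.1 to 10090.5 CPM. The 12 tubule markers summed to 524 and 652 CPM in the libraries numbered 3, with none at 0, to 36.1 and 62.7 CPM in those numbered 1, with 6 and 1 at 0, and to 60.5 and 104 CPM in those numbered 2, with 5 and 8 at 0. All 12 were higher in both libraries numbered 3 than in both numbered 1. Higher in both libraries numbered 3 were also 4 of 5 macrophage markers, where 39.1% of all genes did this. The 5 macrophage markers summed to 932 and 451 CPM there against 241 and 46.6 CPM in those numbered 1. Of 5 ureteric bud markers 3 did so, but of these Ret had only 8 and 2 counts in number 3 and Wnt9b 5 and 8. The ureteric bud sums overlapped, at 122 and 66.1 CPM in number 3 and 129 and 99.8 CPM in number 1. In the other direction, 3 of 4 erythroid, 2 of 6 cardiac and 2 of 4 neuronal markers were higher in both libraries numbered 1, where 21.9% of all genes did this. Other lists were split. Of 5 gonad markers 3 were higher in number 1 and 2 in number 3, and of 5 cartilage and bone markers 2 went each way. Podocyte, liver and gut markers each had 2 of 4 higher in number 3 and 1 in number 1. The part of any of these cell types in the Hoxd8 or Hoxa5 difference was not tested. The 3 erythroid markers belong to a list that summed to 773 and 622 CPM in the libraries numbered 1 and to 215 and 581 CPM in those numbered 3. Lung epithelial markers summed to at most 1.03 CPM in any library, in Foxp1-deficient 2, where Hoxa5 had no count. These markers do not read lung mesenchyme, where Hoxa5 is known to act, and a lung source of Hoxa5 was not tested.

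The missing members of the libraries numbered 2 were set against other genes of like level. Among 4435 genes that averaged 1 to 10 CPM in the libraries numbered 1 and 3, 34.3% were at 0 in control 2 and 32.0% in Foxp1-deficient 2, against at most 3.18% in the other 4 libraries. Of the 17 Hox members in that range, 13 (76.5%) were at 0 in control 2 and 14 (82.4%) in Foxp1-deficient 2. None was at 0 in the other 4 libraries, but the genes were chosen by their level there, so few zeros follow from the choice. Genes low only in the libraries numbered 2 also enter by this choice, Hox or not. In the bin from 1 to 2 CPM, 5 and 7 of 7 members were at 0 in control 2 and Foxp1-deficient 2, against 54.6% and 50.6% of genes. From 2 to 5 CPM, 6 and 5 of 7 members were at 0 against 34.9% and 31.7% of genes. From 5 to 10 CPM, 2 and 2 of 3 members were at 0 against 15.3% and 15.6%. Those counts that the libraries numbered 2 did have were not small, the lowest being 12 counts in control 2 and 6 counts in Foxp1-deficient 2, where each other library had Hox members with a single count. Over all genes, those with 1 to 3 counts were 2.51% and 2.56% of genes counted in the libraries numbered 2 and 11.8% to 19.3% in the other 4. The part of this shortage of low counts in the Hox zeros was not tested.

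**Figure D4:**
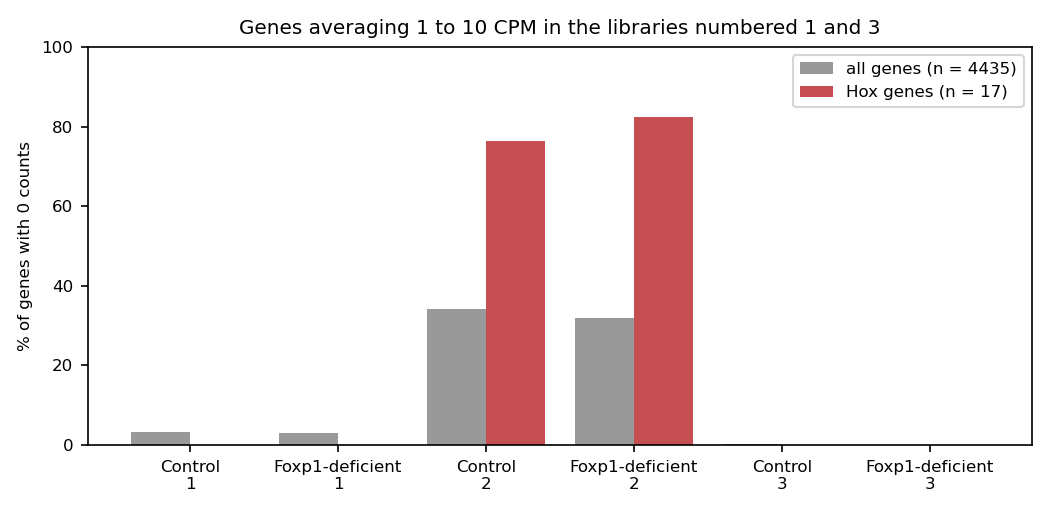
Percent of genes with 0 counts in each library among those averaging 1 to 10 CPM in the libraries numbered 1 and 3, for all 4435 genes (grey) and the 17 Hox genes among them (red). In the libraries numbered 2, 76.5% and 82.4% of the Hox genes had no count against 34.3% and 32.0% of all genes. The other 4 libraries, where no Hox gene was at 0, are those by which the genes were chosen.

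Between genotypes no Hox gene passed the test. The edgeR quasi-likelihood test called 0 of the 16 tested members and 0% of 14311 genes, and 23 members were too low to be tested. At an unadjusted p under 0.05 edgeR gave 0 members and 0.72% of genes, and DESeq2 called 0 members and 0.0238% of genes after adjustment. Once replicate number was a block, edgeR still called 0 members and 0% of genes, and 0 members and 5.32% of genes had an unadjusted p under 0.05. Of the 16 members 6 had a positive and 10 a negative log2 difference, with a median of -0.67 beside 0.03 over all genes. That median was 0.15 with a stricter low-count filter and 0.09 without control 1, so its sign is not settled by these libraries. The genotypes did not overlap for 0 of the 16 members, where 2.1% of tested genes were wholly higher and 2.07% wholly lower in Foxp1-deficient libraries.

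The members of lowest p were Hoxc6, Hoxb4, Hoxb8, Hoxb7 and Hoxd1, each with an edgeR adjusted p of 0.9998. Hoxc6, a gene of the forelimb-level spinal cord, had 1.82, 1.60 and 0.604 CPM across controls 1 to 3 and 1.01, 0 and 0.738 CPM across Foxp1-deficient 1 to 3, a log2 difference of -1.32 (SE 1.48). The groups overlapped, and the Foxp1-deficient library was lower in numbers 1 and 2 and higher in number 3. Hoxb4 had a log2 difference of 1.09 (SE 1.43), and the 3 libraries of each genotype overlapped as given above. Hoxb8, a gene of blood progenitors and microglia, had 3.71, 0 and 1.04 CPM across controls 1 to 3 and 1.31, 0 and 0.791 CPM across Foxp1-deficient 1 to 3, a log2 difference of -1.17 (SE 1.86). Without control 1 the Hoxb8 difference was 0.47, and without both libraries numbered 1 it was -0.39. Hoxb7 had a log2 difference of -1.10 (SE 1.83) and Hoxd1 of -0.81 (SE 1.45), with group means less than 1 SD apart for both. With 1 library left out these differences ran from -0.77 to -2.02 for Hoxc6 (without Foxp1-deficient 2 and without Foxp1-deficient 1), from 0.52 to 2.27 for Hoxb4 (without control 2 and without control 3), from -0.36 to -2.47 for Hoxb7 (without control 1 and without Foxp1-deficient 3) and from -0.26 to -1.85 for Hoxd1 (without Foxp1-deficient 2 and without Foxp1-deficient 3).

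Within replicate numbers, where each genotype has 1 library and no test is possible, the 22 members were compared with counts under 3 set to 3. In number 1, 8 members were at least 2-fold lower in the Foxp1-deficient library, where 9.53% of genes were, and 1, Hoxb4, was at least 2-fold higher, where 6.16% were. Hoxc4 fell from 96 to 23 counts there and Hoxa5 from 257 to 139, so these leading genes of number 1 were lower by log2 differences of -2.30 and -1.12 in CPM. In number 3 none of the members was at least 2-fold lower, where 2.55% of genes were, and 4 were at least 2-fold higher, where 4.49% were. The median log2 difference of the 22 members was -0.60 in number 1 and -0.11 in number 3, beside -0.02 and 0.02 over all genes.

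**Figure D5:**
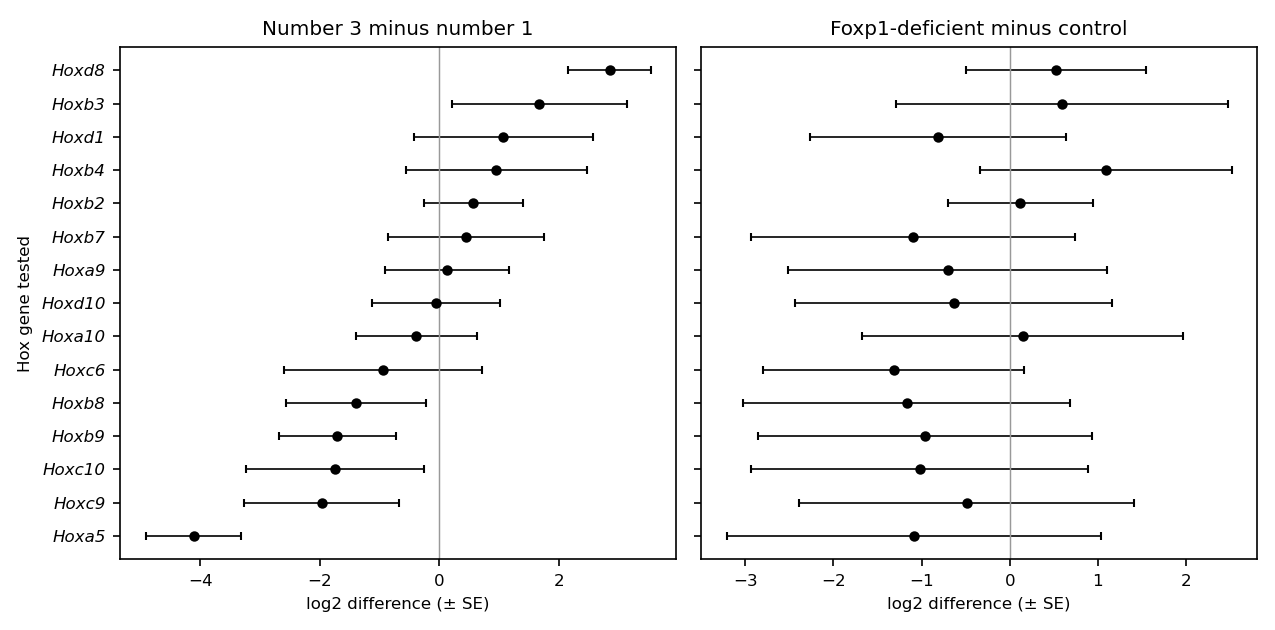
Log2 differences (± SE, edgeR) of 15 of the 16 tested Hox genes, number 3 minus number 1 on the left with genotype in the model and Foxp1-deficient minus control on the right (n = 3 each). On the left Hoxa5 lies at -4.11 and Hoxd8 at 2.85, and on the right every bar of 1 SE spans 0.

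The genes that work with or upstream of Hox genes were read from lists, and none was called between genotypes by edgeR. Their calls between numbers are read against the 30.7% of all tested genes called there. The 9 TALE cofactors, homeodomain partners that bind DNA together with Hox proteins, were all tested, with 4 higher and 5 lower and a median log2 difference of -0.08. Meis2, 1 of the abundant cofactors, had 98.1, 32.4 and 90.3 CPM across controls 1 to 3 and 92.8, 33.0 and 96.8 CPM across Foxp1-deficient 1 to 3. The libraries numbered 2, which lacked most Hox counts, were the lowest for Meis2 but did not lack it. Between numbers 3 cofactors were called, namely Meis2, Pknox2 and Pbx4. Pbx4, named after its values were seen, went the other way from Meis2, with 17.7 and 31.7 CPM in the libraries numbered 2 against 2.02 to 4.06 CPM in the other 4. Of 23 Polycomb and trithorax genes, which silence Hox clusters or keep them active, 12 were higher and 11 lower by genotype. Between numbers 11 were called, 5 with a positive and 6 with a negative difference of number 3 from number 1. That sign is not what the joint test calls, since the test also takes in number 2. Phc2, named after its values were seen, had a log2 difference of -0.05 (SE 0.20) between numbers 3 and 1. Between numbers 2 and 1 its difference was 1.62 (SE 0.21). Of 16 upstream regulators, among them retinoic acid receptors and Cdx factors, 8 were tested, with 4 higher and 4 lower by genotype, and 1 was called between numbers.

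Of 10 kidney partners and targets of Hox11, 6 were tested, all 6 with a negative log2 difference by genotype, a median of -0.56, and 0 called by genotype or by number. The differences ran from -0.16 to -1.17, with SEs of 0.47 to 1.80, and over all genes 53.6% were positive. Eya1 had no count in either library numbered 2, Six2 none in control 2 and Sall1 none in Foxp1-deficient 2. Wt1, a kidney and mesothelial transcription factor of that list, had 192, 53.7 and 168 CPM across controls 1 to 3 and 138, 69.7 and 157 CPM across Foxp1-deficient 1 to 3. Of 17 neighbours and antisense genes of the clusters, 6 were tested, with 3 higher and 3 lower by genotype and 3 called between numbers. Hotair and Hottip, noncoding RNAs of the HoxC and HoxA posterior ends, had no count in any library. Of 19 other positional homeobox and T-box genes, 13 were tested, with 8 higher and 5 lower by genotype and 4 called between numbers.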

How the data were processed

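Ribosome-bound RNA was counted in 6 pulldown libraries. The authors deposited raw counts of fragments for each gene symbol, from featureCounts 1.5.1 run over exons of annotation version 86 (mm10), without options for strand or multi-mapping fragments, per the file headers. The tools STAR, Trimmomatic, FastQC, SAMtools, DESeq2 and deepTools appear without versions, per the submitters' processing notes. Exon length is another deposited column of the authors' table, in bases. Groups and replicate numbers came from sample titles.

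CPM used library totals, and CPM per kb the exon length. Counts were tested with edgeR 4.0.16 in R 4.3.3 (TMM, filterByExpr, two-sided quasi-likelihood F test, Benjamini-Hochberg adjustment over all 14311 genes tested, threshold 0.05). Exact 95% Poisson limits and the floor of 3 counts describe counting error alone, because reads carried no molecular identifiers and so are not independent molecules. Genes sharing exon bases were found from the exon coordinates in the table. Promoters came from RefSeq. Figures were drawn with matplotlib 3.10.9.

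Members and lists were chosen with earlier results of these data known. Library values are given for the 10 members of highest mean CPM per kb, the 5 of lowest p between genotypes, the 5 of lowest p between numbers, paralogue numbers 12 and 13, and, of other lists, at most 3 abundant genes. Libraries of the same number deviated together across genes (r = 0.57, 0.53 and 0.62), those of different numbers at -0.43 to 0.063, so the numbers were taken to pair libraries, from the data and not from the labels. Alternatives were RLE, upper-quartile or no size factors, no or a stricter low-count filter, DESeq2 1.42.0, limma-voom (limma 3.58.1), the replicate block, members without shared exons, and leaving out libraries. Some genes that this rule takes are left out and not reported here. Proteins were not used here.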

Additional observations from a re-analysis of the deposited data

How the results depend on the processing

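No Hox gene was called between genotypes under any alternative. Over all genes the count between genotypes was 0 by edgeR without or with the replicate block, 6 by DESeq2, 167 by DESeq2 with the block, 8 by limma-voom with the block, and 30 by edgeR with the block and without both libraries numbered 2. The block changed no genotype call of a Hox gene. Between numbers, 4394 genes were called, 2375 to 9654 with 1 library left out and 2874 without both libraries numbered 2. The 2 Hox genes called between numbers became 5 with library totals alone, 1 with a minimum count of 30, 3 without a low-count filter, 9 by limma-voom and 7 by DESeq2 (both with the replicate block), 0 to 13 with 1 library left out, and 3 without both libraries numbered 2. It was 0 without control 1 or Foxp1-deficient 1, 1 without control 3 or Foxp1-deficient 3, 11 without control 2 and 13 without Foxp1-deficient 2. The cause of these differences was not tested. The span of mean position over numbers, 1.05, ran from 0.165 to 1.93 with 1 library left out. Members at the detection level in all libraries numbered 2 at 1 CPM, 0 at 2 CPM and 8 without the libraries numbered 2. The mean HoxB share of 29.2% became 24.2% without members that share exon bases, and the mean HoxD share of 36.0% became 13.3% without Hoxd8. With 1 library left out, Hoxb8 between genotypes ran from -2.03 to 0.47 (without control 1). Without the libraries numbered 2, 22 Hox genes in place of 16 passed the low-count filter.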
